A study of Homo sapiens with 18 samples.

Results

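SKmel147 is an established human line from a metastatic melanoma with the NRAS mutation Q61R. In SKmel147, 2 lines were compared here: NT, which per the labels carries Lenti-Cas9 and a PLKO sgRNA construct by stable infection, and Par, which carries no construct. Neither was an ARID2 knockout, so the comparison asks what else differed between the transduced control and its parental line. The comparison was chosen by line label and holds 4 of the 18 libraries of the series, 2 libraries of NT and 2 of Par, out of 9 lines with 2 libraries each. The other SKmel147 lines carry the same kinds of construct as NT with ARID2 targeted (KO1.4, KO1.5, KO3.20). Their 6 libraries share the fit, where they enter the filter, the scaling, the estimate of the spread and the GC correction. Otherwise they appear only as levels set beside the values of NT and Par. All lines were grown in DMEM with 10% FBS, and polyadenylated RNA was sequenced with a directional kit. The labels do not spell out NT, which the count table names NTC, do not give the sgRNA target, and leave unsaid if NT was a clone or a pool and if replicate libraries stem from separate cultures. Each group is 1 line, so an effect of the construct and any other difference between these lines cannot be told apart, and all p-values measure the spread between libraries of a line, which may be technical.

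Melanoma cells can present antigens and make cytokines themselves. HLA class I molecules display peptides that the proteasome cuts and the TAP transporter imports, and many melanoma cells also carry HLA class II, whose genes are switched on by the coactivator CIITA. Interferons raise both sets together with antiviral genes through JAK kinases and STAT factors, whereas NF-kB drives interleukin and chemokine genes. Matrix proteins such as fibronectin and tenascin, the proteases that cut them and the integrins that bind them mark invasive melanoma states, and the genes of S phase and mitosis follow the share of cycling cells. In bulk RNA, fewer cells of a kind and less RNA per cell cannot be told apart.

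The libraries held 29934536 and 28137908 counts in NT, against 35670140 and 23010389 in Par. Levels are CPM, counts scaled to a common library size with TMM factors, which compare a gene between libraries and not genes of different length with each other. ARID2, the subunit gene of the PBAF chromatin remodelling complex that was targeted in the KO lines, stood at 66.9 and 62.3 CPM in NT, against 72.8 and 67.3 CPM in Par, with 39.8 to 57.0 CPM among the 6 KO libraries. The NT and Par values differed by a log2 fold change of −0.12 ± 0.13 (SE), which did not pass the test (edgeR quasi-likelihood test, Benjamini-Hochberg (BH) adjusted p = 0.599). Of 8 melanoma identity markers, SOX10 stood at 146 and 196 CPM in NT, against 199.6 and 249.5 CPM in Par. MLANA, S100A1 and MIA were under 2 CPM in all 4 libraries, PMEL and S100B were too low to be tested, and none of the 6 tested markers was called. Summed levels of 11 T and B lymphocyte markers were 0.204 and 0.108 CPM in NT, against 0.337 and 0.258 CPM in Par, with CD2, CD3E, CD3G and MS4A1 at 0 in all 10 SKmel147 libraries. Sums of 11 myeloid markers were 1.46 and 1.405 CPM in NT, against 1.52 and 1.38 CPM in Par.

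Libraries of a line were not alike. Transcripts rich in G and C were under-represented in NT R1 and over-represented in Par R2: against the mean of the 10 SKmel147 libraries, the deviation of a gene followed its GC content at a Spearman rho of −0.518 in NT R1 and 0.141 in NT R2, against −0.0167 in Par R1 and 0.482 in Par R2 (across 15403 genes, which share their libraries). The libraries of a line also differed far beyond sampling noise, as the chi-square statistic per degree of freedom was 35.7 in NT and 36.7 in Par. Calls are therefore given with all libraries, after a correction of every library for its trends on GC content and transcript length, and without the library that moved them most. That library was NT R1.

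In the fit of all 10 SKmel147 libraries, 1702 of 18361 tested genes differed between NT and Par, or 9.27%, at an adjusted p under 0.05 (edgeR quasi-likelihood test, BH). Of these, 702 were higher in NT, 3.82% of tested genes, and 1000 were lower, 5.45%. The median log2 fold change of all tested genes was 0.00, and 189 higher and 381 lower genes differed by more than 2-fold. Once corrected for GC and length, 3146 genes passed, 17.1%, with 1600 higher (8.71%) and 1546 lower (8.42%), and 1564 of the 1702 kept their call and direction. Without NT R1, 436 of 19225 tested genes were called, 2.27%, and 426 of them were among the 1702.

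Among called genes with a mean log2 CPM of 3 or more, no overlap between the lines and a call kept after the correction, the largest rise was that of TMPRSS15, which encodes enteropeptidase, a membrane serine protease known from the gut. It stood at 156 and 129.6 CPM in NT, against 2.05 and 3.57 CPM in Par, a 52.4-fold higher level in NT (log2 fold change 5.71 ± 0.24, SE). The 6 KO libraries, at 93.2 to 379 CPM, lay on the side of NT. EEF1A2, a tissue-restricted translation elongation factor, had 62.9 and 86.8 CPM in NT, against 12.8 and 13.2 CPM in Par, while the KO libraries ran from 72.7 to 158 CPM. LCP1, the actin-bundling protein L-plastin, had 117 and 97.3 CPM in NT, against 37.7 and 16.6 CPM in Par (log2 fold change 1.97 ± 0.28). In each of these genes both NT libraries lay above both Par libraries. The rest of the 10 genes that rose most within these limits were the zinc finger genes ZNF704 and ZNF716, the cationic amino acid transporter SLC7A2, the phospholipid flippase ATP11A, the Ras-binding protein RASSF5, ILDR2 and the growth factor TGFB2, at log2 fold changes of 1.37 to 1.70.

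Among the 10 genes that fell most within the same limits, 2 were hair keratins and 6 were immune genes described next. KRT81 had 16.6 and 16.9 CPM in NT, against 144 and 126 CPM in Par, an 8.04-fold lower level in NT. KRT86, its near-identical neighbour, with which it can share reads, had 4.58 and 4.90 CPM in NT, against 29.8 and 21.7 CPM in Par. The KO libraries ran from 2.66 to 104 CPM for KRT81, all below both Par libraries. SYNPO, an actin-associated protein, and EPAS1, the hypoxia-inducible factor HIF-2α, fell by 1.97 and 1.798 on the log2 scale. The adjusted p of the 10 higher genes ranged from 5.14e-07 to 0.00882 and that of the 10 lower genes from 6.66e-06 to 0.00184 (edgeR quasi-likelihood test, BH). ZNF716 was the exception among these 20 when NT R1 was left out, with an adjusted p of 0.0858 (edgeR, BH). Without NT R2, Par R1 or Par R2 all 20 kept their call.

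**Figure D1:**
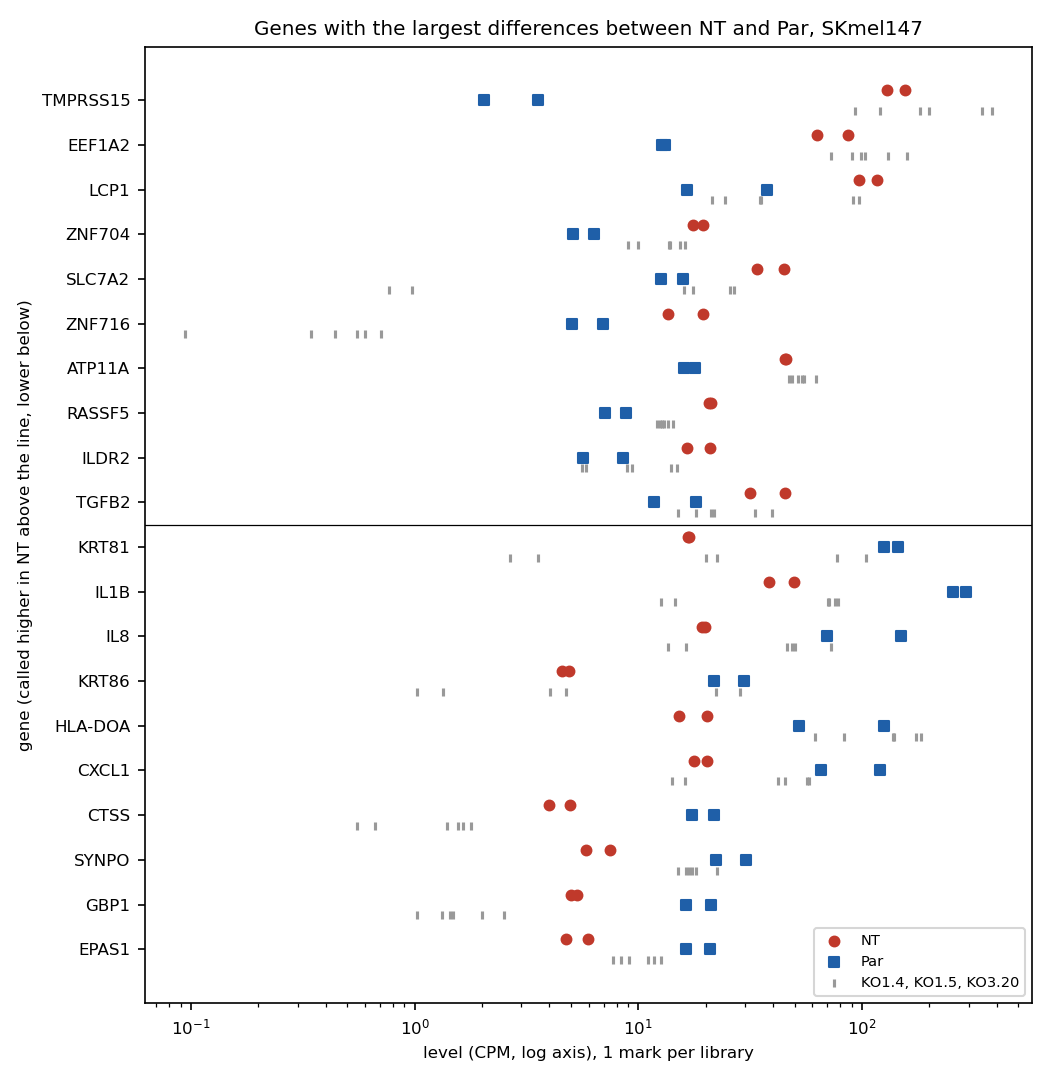
Level, in CPM on a log axis, of the 20 genes with the largest called differences among those with a mean log2 CPM of 3 or more, no overlap between the lines and a call kept after the GC and length correction, with 1 mark per library for NT (red circles), Par (blue squares) and the 3 KO lines (grey ticks). In every row the NT marks and the Par marks do not overlap, with TMPRSS15 at 156 and 129.6 CPM in NT against 2.05 and 3.57 CPM in Par, while the KO libraries of TMPRSS15, EEF1A2 and ATP11A lie with NT.

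Most immune genes that were called were lower in NT. Over the 7 immune lists, 49 of 149 tested genes were lower in NT and 4 were higher, with a median log2 fold change of −0.57, beside 5.45% lower and 3.82% higher among all tested genes. After the GC and length correction 64 were lower and 5 higher, with a median of −0.43, beside 8.42% and 8.71% of all genes. Without NT R1, 21 of 150 were lower and 1 was higher, beside 1.39% and 0.874% of all genes. The members were chosen with earlier results of these data known, so the counts describe them and are no independent support. Where the libraries of called genes are said to be separated between the lines, here and below, that too describes genes already called. It adds no support to the calls.

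As examples, 4 promoters of genes called lower are printed, as the 250 bases before the RefSeq start site (GRCh38.p14), 5′ to 3′ on the strand of the gene. They were picked by adjusted p among called members that hold a match to the motif of their list. The printed stretches thus do not show how common a motif is. HLA-DOA, IL1B and IL8, also called lower, held no match to any of the motifs searched. Capitals mark matches to 1 motif per gene, searched on both strands: the Y box CTGATTGG (reverse CCAATCAG) of HLA class II promoters in HLA-DQB1 (chr6:32666658-32666907, minus strand), the interferon-response motif (TTTC, any 2 bases and TTTC, or the reverse complement) in OAS3 (chr12:112938224-112938473, plus strand) and GBP1 (chr1:89065209-89065458, minus strand), and the NF-kB motif (GGG, any 2 bases and TTTCC, or the reverse complement) in CXCL1 (chr4:73869143-73869392, plus strand).
HLA-DQB1: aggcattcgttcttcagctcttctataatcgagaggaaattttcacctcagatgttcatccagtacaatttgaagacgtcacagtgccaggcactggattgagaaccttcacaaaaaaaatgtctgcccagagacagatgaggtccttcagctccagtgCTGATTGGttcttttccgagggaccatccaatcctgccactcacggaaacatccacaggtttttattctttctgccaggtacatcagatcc
OAS3: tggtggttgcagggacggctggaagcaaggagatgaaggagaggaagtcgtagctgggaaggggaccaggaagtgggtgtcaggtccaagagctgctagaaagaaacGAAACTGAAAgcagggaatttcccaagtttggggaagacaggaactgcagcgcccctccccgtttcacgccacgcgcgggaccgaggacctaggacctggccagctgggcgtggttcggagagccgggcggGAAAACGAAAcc
GBP1: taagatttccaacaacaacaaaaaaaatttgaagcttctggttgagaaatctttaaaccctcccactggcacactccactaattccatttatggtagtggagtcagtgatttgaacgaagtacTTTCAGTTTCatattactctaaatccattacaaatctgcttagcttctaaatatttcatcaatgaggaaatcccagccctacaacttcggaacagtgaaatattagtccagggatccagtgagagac
CXCL1: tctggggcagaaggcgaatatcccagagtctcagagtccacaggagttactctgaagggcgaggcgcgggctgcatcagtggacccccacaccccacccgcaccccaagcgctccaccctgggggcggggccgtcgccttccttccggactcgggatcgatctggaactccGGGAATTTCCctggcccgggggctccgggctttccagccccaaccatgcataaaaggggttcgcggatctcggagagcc
The interferon-response motif was found in 20 of the 37 interferon-stimulated genes with a promoter in the table, and in 6 of the 10 of them that were called lower, against 3.07% of all 27305 promoters. The NF-kB motif was found in 11 of 23 cytokine, chemokine and NF-kB target genes, and in 6 of 10 called lower, against 1.73% of all. The Y box was found in 5 of 15 class II pathway genes, and in 2 of 5 called lower, against 3.98% of all. A match is a description of the letters and says nothing of binding in these cells.

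In the HLA class II pathway, 6 of 18 tested genes fell, 1 rose and the median was −0.79. HLA-DOA, which with HLA-DOB forms a modulator of peptide loading, fell most, to 15.2 and 20.3 CPM in NT, against 52.2 and 126 CPM in Par (log2 fold change −2.32 ± 0.32). HLA-DQB1, a chain of the presenting molecule whose promoter is shown above, had 15.98 and 21.7 CPM in NT, against 28.1 and 87.2 CPM in Par (−1.61 ± 0.37). HLA-DPA1 had 427 and 474 CPM in NT, against 577 and 1052 CPM in Par (−0.85 ± 0.21). In all of these genes the NT libraries lay below both Par libraries, but the Par libraries themselves were far apart. Over the 18 tested genes the median log2 difference of Par R1 minus Par R2 was −1.05, larger in size than the median between NT and Par, and the summed level was 2174 and 2594 CPM in NT, against 2641 and 5645 CPM in Par. The coactivator CIITA, at 24.1 and 36.6 CPM in NT, against 32.2 and 72.0 CPM in Par, and the most abundant chain, HLA-DRA, at 758 and 890.2 CPM in NT, against 825 and 1789 CPM in Par, overlapped between the lines and did not pass (adjusted p = 0.119 and 0.122, edgeR quasi-likelihood test, BH). CTSS, the protease that trims the invariant chain, had 4.95 and 3.998 CPM in NT, against 17.4 and 21.8 CPM in Par (−2.13 ± 0.20), with little spread within a line. The KO libraries were lower still for CTSS, at 0.550 to 1.79 CPM, but stood at 61.7 to 184 CPM for HLA-DOA and 1065 to 2151 CPM for HLA-DPA1, at or above Par. RFXAP, a subunit of the RFX factor that binds class II promoters, was the 1 member that rose, to 13.1 and 12.1 CPM in NT, against 7.63 and 5.89 CPM in Par. Without NT R1, and likewise without Par R2, HLA-DOA and CTSS kept their call and HLA-DRB1, HLA-DPA1, HLA-DQB1, HLA-DMB and RFXAP did not, with adjusted p of 0.0945 to 0.253 and 0.0710 to 0.370 (edgeR, BH), and HLA-DRB1 also lost it without NT R2 (0.0555). HLA genes resemble each other and can share reads.

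In the class I pathway, 6 of 21 tested genes fell and none rose, with a median of −0.35, and 10 were lower after the correction. TAP1, a chain of the peptide transporter, had 71.7 and 96.5 CPM in NT, against 168 and 207 CPM in Par (log2 fold change −1.15 ± 0.16). PSMB9, a catalytic subunit of the immunoproteasome, had 19.7 and 34.7 CPM in NT, against 48.9 and 95.1 CPM in Par (−1.402 ± 0.30). The heavy chain genes HLA-B and HLA-C fell by 1.25 and 0.89 on the log2 scale, and NLRC5, the coactivator of class I genes, by 0.72. PSMB8, a further immunoproteasome subunit, was also lower. The light chain B2M, at 400.0 and 357 CPM in NT, against 434 and 524 CPM in Par, did not pass (adjusted p = 0.0935, edgeR quasi-likelihood test, BH). TAP1 alone of the 6 kept its call without NT R1, where the others had adjusted p of 0.109 to 0.286, and without Par R2, where they had 0.0881 to 0.260 (edgeR, BH), and HLA-B and HLA-C also lost it without NT R2 (0.0626 and 0.0629). Among ligands of immune checkpoint receptors, 3 of 9 fell: PDCD1LG2 (PD-L2), at 3.903 and 3.93 CPM in NT, against 8.78 and 9.16 CPM in Par, CD276 (B7-H3) and TNFRSF14. CD274 (PD-L1) had 64.3 and 46.6 CPM in NT, against 76.5 and 54.1 CPM in Par, and the lines overlapped. CD276 and TNFRSF14 lost their call without NT R1 (adjusted p = 0.0695 and 0.188, edgeR, BH), and TNFRSF14 without Par R2 (0.0969).

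Of 43 interferon-stimulated genes tested, 15 fell, 1 rose and the median was −0.58. OAS3, an enzyme that senses double-stranded RNA, had 8.93 and 10.3 CPM in NT, against 35.1 and 28.9 CPM in Par (log2 fold change −1.74 ± 0.15). GBP1, a guanylate-binding protein of cell-autonomous defence, had 5.33 and 5.01 CPM in NT, against 21.1 and 16.3 CPM in Par (−1.86 ± 0.21). Both genes, whose promoters are shown above, were separated cleanly between the lines, with close libraries within each. The KO libraries stood at 13.9 to 18.4 CPM for OAS3, between NT and Par, and at 1.03 to 2.51 CPM for GBP1, below both. IFIT3, an inhibitor of viral translation, IFITM3, a membrane protein that blocks virus entry, and APOL6 fell by 1.16, 0.80 and 1.02 on the log2 scale. The 1 gene that rose was RSAD2, at 0.475 and 0.288 CPM in NT, against 0.0561 and 0.0860 CPM in Par, which rests on few counts. Without NT R1, 9 of the 15 kept their call, and ISG20, MX2, OAS1, GBP2, UBE2L6, IRF1 and RSAD2 did not (adjusted p of 0.0546 to 0.281, edgeR, BH). Without NT R2 9, without Par R1 10 and without Par R2 10 of the 15 kept it, and RSAD2 lost it each time, while the 5 named here as falling kept it throughout. Of 22 genes of nucleic acid sensing and interferon signalling, 2 fell, or 9.09%, beside 5.45% of all tested genes. After the correction 5 were lower, beside 8.42% of all genes. The 2 were the kinases JAK1, at 153 and 141 CPM in NT, against 244 and 215 CPM in Par, and JAK2, at 10.2 and 9.51 CPM in NT, against 17.2 and 15.5 CPM in Par. JAK2 just missed the threshold without NT R1 (adjusted p = 0.0502, edgeR, BH).

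Cytokines, chemokines and NF-kB targets held 12 genes that fell and 2 that rose among 22 tested, with a median of −0.74. IL1B, the secreted cytokine interleukin-1β, had 38.4 and 49.7 CPM in NT, against 256 and 292 CPM in Par, a 6.22-fold lower level in NT (log2 fold change −2.64 ± 0.15). IL8, a chemokine for neutrophils, had 19.9 and 19.2 CPM in NT, against 69.5 and 149 CPM in Par (−2.48 ± 0.30). CXCL1, a chemokine of the same family whose promoter is shown above, had 17.8 and 20.3 CPM in NT, against 65.6 and 120.0 CPM in Par (−2.28 ± 0.23). In all of them the lines were separated, and for IL8 and CXCL1 Par R2 was well above Par R1. IL6, an interleukin of the acute phase, fell to 2.34 and 2.41 CPM in NT, against 5.64 and 13.1 CPM in Par, and CXCL3 to 1.02 and 1.33 CPM in NT, against 3.65 and 4.001 CPM in Par. NFKBIA, the inhibitor that NF-kB induces against itself, fell by 0.65 on the log2 scale, and CCL2, CXCL5, IL11, BIRC3, LIF and ICAM1 were called lower too. IL1A, the cell-associated relative of IL1B, went the other way, with 101 and 115 CPM in NT, against 69.4 and 41.5 CPM in Par (0.95 ± 0.19), and so did IL24, at 0.56. The KO libraries stood at 12.7 to 77.7 CPM for IL1B, 13.6 to 72.7 CPM for IL8 and 14.1 to 57.7 CPM for CXCL1. Without NT R1 the calls of IL1B, IL8, CXCL1, IL6 and CXCL3 were kept and those of the other 7 were not (adjusted p of 0.0554 to 0.267, edgeR, BH), nor was that of IL24 (0.226). Without Par R2, 7 of the 12 kept their call, and without NT R2 and Par R1, 9 and 10 did.

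Of 14 complement genes and regulators tested, 5 fell: C1R, C3, CFI, C4A and C4B. C1R, a protease that starts the classical pathway, had 1.87 and 2.27 CPM in NT, against 4.71 and 6.54 CPM in Par. C3, the central component, had 7 and 4 counts in the NT libraries, against 71 and 118 in the Par libraries. C4A and C4B are near-identical copies and cannot be told apart by short reads with confidence. CFI, C4A and C4B lost their call without NT R1 (adjusted p of 0.0932 to 0.145, edgeR, BH) and without Par R2 (0.0617 to 0.112), and CFI also without NT R2 (0.0740).

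Most matrix and adhesion genes that were called were lower in NT as well. Over the 5 lists, 31 of 133 tested genes were lower in NT and 3 were higher, with a median of −0.33, beside 5.45% lower and 3.82% higher among all tested genes. After the GC and length correction 33 were lower and 10 higher, with a median of −0.19, beside 8.42% and 8.71% of all genes, and without NT R1 12 of 137 were lower and 2 higher. FN1, fibronectin, had 73.1 and 76.1 CPM in NT, against 179 and 185 CPM in Par (log2 fold change −1.29 ± 0.10). TNC, tenascin-C, had 466 and 572 CPM in NT, against 1219.8 and 1266 CPM in Par (−1.26 ± 0.12), and THBS2, thrombospondin-2, 36.7 and 49.1 CPM in NT, against 108 and 98.2 CPM in Par (−1.26 ± 0.14). In these 3 genes the lines were far apart and the libraries of each line close together. The KO libraries stood at 134 to 306 CPM for FN1 and 447 to 594 CPM for TNC. SPARC, a matrix-binding glycoprotein, and FBN1, fibrillin-1, fell by 0.60 and 0.80 on the log2 scale, and HSPG2, LAMA5 and TGFBI completed the 8 glycoprotein genes of 36 that fell. FBLN1, fibulin-1, and LAMB3, a laminin chain, were the 2 that rose, by 1.36 and 0.58. FBN1, LAMA5, TGFBI, HSPG2 and FBLN1 lost their call without NT R1 (adjusted p of 0.0570 to 0.206, edgeR, BH). LAMA5, TGFBI, HSPG2 and LAMB3 lost it without Par R2, TGFBI and LAMB3 without NT R2, and FBLN1 without Par R1.

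Of 22 collagens tested, 4 fell and none rose, at a median of −0.50, and after the correction 4 were lower and 2 higher, at a median of −0.21. COL12A1, a collagen that coats fibrils, had 220.5 and 197 CPM in NT, against 332 and 286 CPM in Par (log2 fold change −0.56 ± 0.11). COL6A2, COL17A1 and COL5A1 fell by 1.71, 1.20 and 0.97 on the log2 scale, and none of the 3 kept its call without NT R1 (adjusted p of 0.137 to 0.224, edgeR, BH). COL6A2 and COL5A1 lost it without Par R2, COL5A1 and COL17A1 without NT R2, and COL17A1 without Par R1. Among 18 collagen-modifying enzymes, ADAMTS2, the protease that trims procollagens, had 0.170 and 0.324 CPM in NT, against 5.53 and 16.05 CPM in Par, and P4HA2, a prolyl hydroxylase subunit, fell by 0.63. P4HA2 lost its call without NT R1 (adjusted p = 0.104, edgeR, BH) and without Par R2 (0.0887). The KO libraries spanned 0.0687 to 10.9 CPM for ADAMTS2.

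Of 29 matrix proteases and inhibitors, 9 fell and 1 rose, with a median of −0.45. TIMP3, a matrix-bound inhibitor of metalloproteases, had 9.16 and 8.61 CPM in NT, against 23.5 and 30.8 CPM in Par (log2 fold change −1.61 ± 0.15). PLAT, the tissue plasminogen activator, and the sheddase ADAM19 fell by 0.66 and 0.53, whereas PLAU, the urokinase-type activator, rose to 5.77 and 6.05 CPM in NT, against 3.14 and 2.50 CPM in Par. TIMP3 and PLAU kept their call without NT R1, and PLAT, ADAM19, PLAUR, ADAMTS4, MMP3, MMP15 and MMP17 did not (adjusted p of 0.0635 to 0.250, edgeR, BH). MMP3, MMP15, MMP17, ADAMTS4 and PLAUR also lost it without Par R2. Of 28 integrins and adhesion adaptors, 8 fell and none rose, at a median of −0.23. ITGA5, the fibronectin receptor α5, had 101 and 116 CPM in NT, against 222 and 216 CPM in Par, and ITGB3, the β3 chain, 4.38 and 5.65 CPM in NT, against 12.9 and 12.3 CPM in Par. The adaptors TLN1 (talin), PXN (paxillin) and ZYX (zyxin) fell by 0.72, 0.84 and 0.66. ITGA3, TLN2, ZYX and BCAR1 lost their call without NT R1 (adjusted p of 0.0795 to 0.271, edgeR, BH), and ITGA3, ZYX and BCAR1 also without Par R2. After the GC and length correction ZYX did not pass (adjusted p = 0.133, edgeR quasi-likelihood test, BH).

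Among S phase and G2/M genes, most of those called were higher in NT. Of 83 S phase and G2/M genes tested, 11 rose and 1 fell, with a median of 0.22, beside 3.82% higher and 5.45% lower among all tested genes. After the GC and length correction 28 rose and 1 fell, with a median of 0.19, beside 8.71% and 8.42% of all genes, and without NT R1 none was called in either direction (edgeR quasi-likelihood test, BH), with 17 higher and 1 lower at an unadjusted p under 0.05 and a median of 0.12. With NT R1 left out NT kept a single library, and far fewer of all tested genes were called too. What part that library had in the calls of this group was not tested. In S phase, RFC3, a subunit of the clamp loader, had 102 and 81.6 CPM in NT, against 57.0 and 55.1 CPM in Par (log2 fold change 0.71 ± 0.13). RRM2, the small subunit of ribonucleotide reductase, had 555 and 473 CPM in NT, against 349 and 370.1 CPM in Par (0.52 ± 0.11), and RFC4, GINS1, CCNE1, PCNA and CCNE2 rose too. MCM5, a subunit of the replicative helicase on chromosome 22, fell to 75.9 and 88.3 CPM in NT, against 115 and 149 CPM in Par. In G2/M, CENPF, a kinetochore protein, had 609 and 545 CPM in NT, against 416 and 358 CPM in Par (0.58 ± 0.11), and NEK2, a centrosome kinase, 50.9 and 42.1 CPM in NT, against 28.0 and 24.4 CPM in Par (0.82 ± 0.16). TOP2A and NUSAP1 rose by 0.46 and 0.36, and NUSAP1 did not pass after the correction (adjusted p = 0.0690, edgeR quasi-likelihood test, BH). In all these genes both NT libraries lay on 1 side of both Par libraries, while NT R1 was above NT R2 for RFC3, RRM2, CENPF and NEK2. Without NT R1 the 11 genes that rose had adjusted p of 0.0660 to 0.307 (edgeR, BH) and each kept its sign, and without Par R2 3 of the 11 were called. MKI67, a marker of cycling cells, had 1117 and 1048 CPM in NT, against 1049.8 and 892 CPM in Par, and was not called.

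Among 19 G1 cyclins, CDKs and inhibitors, 2 rose and 4 fell, with a median of −0.26. After the GC and length correction 4 were higher and 6 lower with a median of −0.04, and without NT R1 the median was −0.11. RB1, the retinoblastoma brake on S phase entry, had 222 and 159 CPM in NT, against 119.5 and 108 CPM in Par, and CDK6, the kinase that inactivates it, 379.9 and 293 CPM in NT, against 198 and 238 CPM in Par. The inhibitors CDKN2A, CDKN2B and CDKN1C and the cyclin CCND3 fell. CDKN2A stood at 47.3 and 61.6 CPM in NT, against 75.3 and 149 CPM in Par (log2 fold change −1.04 ± 0.24). All 6 lost their call without NT R1 (adjusted p of 0.160 to 0.269, edgeR, BH), and all but CDK6 without Par R2. Of 18 replication-dependent histone genes, whose RNAs lack a poly(A) tail for the most part and are poorly caught by this kind of library, HIST1H2AE was the 1 called, at 0.475 and 0.504 CPM in NT, against 0.0842 and 0.172 CPM in Par. It rests on few counts, belongs to a family of near copies and lost its call when any of the 4 libraries was left out.

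**Figure D2:**
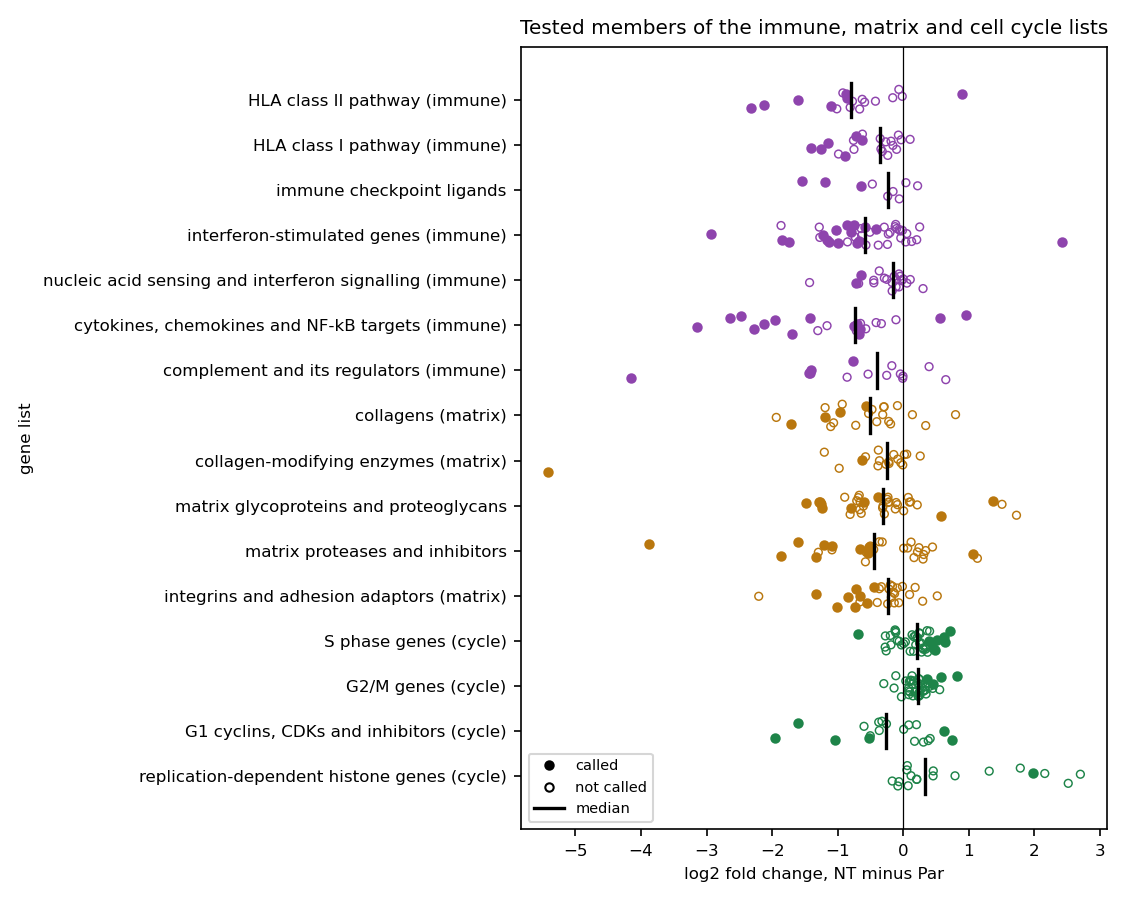
Log2 fold change of NT minus Par for each tested member of the immune (purple), matrix (orange) and cell cycle (green) lists, with filled marks for called genes, open marks for others and a bar at the median of the list. The medians of all 12 immune and matrix lists lie below 0, from −0.79 in the HLA class II pathway to −0.15 in nucleic acid sensing, and those of the S phase and G2/M lists lie above it at 0.21 and 0.23.

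Differences between the lines were also arranged by chromosome. Median log2 fold changes were 0.23 on chromosome 8, 0.39 on chromosome 13, −0.17 on chromosome 9, −0.26 on chromosome 12 and −0.53 on chromosome 22. After the GC and length correction they were 0.19, 0.32, −0.12, −0.26 and −0.32 in the same order. On chromosome 13, 24.4% of tested genes were called higher and 1.22% lower, and on chromosome 22 0.862% higher and 33.0% lower, against 3.82% and 5.45% of all genes. With the trends on GC and length removed, the median deviation of chromosome 22 from the mean of the 10 libraries was −0.0816 and −0.0786 in NT, against 0.247 and 0.264 in Par, and −0.0681 to −0.0195 in the KO libraries. That of chromosome 13 was 0.0636 and 0.0595 in NT, against −0.253 and −0.245 in Par, and 0.0439 to 0.0896 in the KO libraries. On both chromosomes, and on chromosome 12, it was thus Par that stood apart from NT and from all 6 KO libraries. Of the called genes named above, RB1, RFC3, LCP1, ATP11A and RFXAP lie on chromosome 13, ZNF704, SLC7A2, CCNE2 and PLAT on chromosome 8, OAS1, OAS3, KRT81, KRT86, ITGA5, PXN, MMP17 and C1R on chromosome 12, and MCM5, TIMP3, APOL6, LIF and FBLN1 on chromosome 22. JAK2, PDCD1LG2, CDKN2A, CDKN2B, TLN1, TNC and COL5A1 lie on chromosome 9. A stretch of a chromosome can depart from the median of the whole, as given next.

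**Figure D3:**
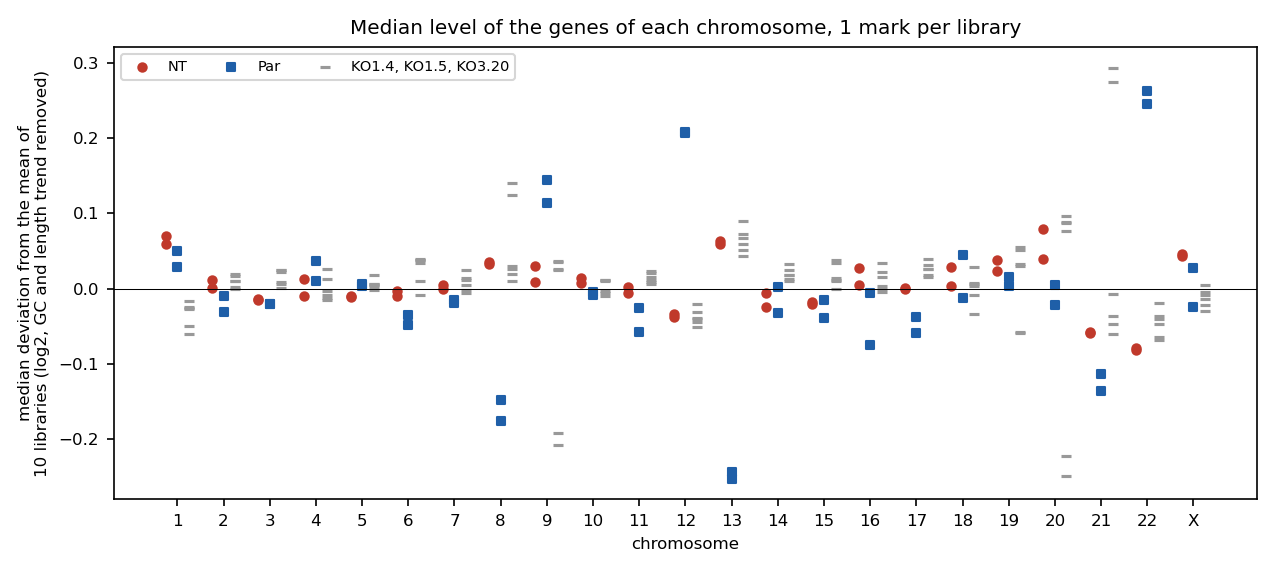
Median deviation of the genes of each chromosome from the mean of the 10 SKmel147 libraries (log2, trends on GC content and length removed), with 1 mark per library for NT (red circles), Par (blue squares) and the KO lines (grey ticks). Par lies above all other libraries on chromosomes 12 and 22, at 0.207 and 0.208 and at 0.247 and 0.264, and below them on chromosomes 8 and 13.

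The shifts had edges within some chromosomes. On chromosome 12, cut into deciles of genes in order, the corrected medians of NT minus Par were positive in the first decile, at 0.36, and the second, at 0.31, and lay between −0.45 and −0.31 from the fourth to the last. C1R, which fell, lies in the first. On chromosome 1 they were 0.24, 0.09 and 0.24 from the eighth decile to the last, with 27.3%, 21.6% and 16.2% called higher. NT lay above all KO libraries there, and ILDR2, RASSF5, TGFB2, CENPF and NEK2 are among its genes. The fourth decile of chromosome 1, at −0.25 with 12.4% called lower, holds JAK1. The first decile of chromosome 9, at −0.37, holds JAK2, PDCD1LG2, CDKN2A and CDKN2B. The second decile of chromosome 21, at 0.40 with 25% of its 16 genes called higher, holds TMPRSS15. FBLN1, which rose, lies in the ninth decile of chromosome 22, at −0.0014. No DNA was measured, so a difference in copy number and a difference in RNA output along a stretch cannot be told apart. Of the 1702 called genes, 455 lay on chromosomes 8, 12, 13 and 22, where the corrected median exceeded 0.15 in size, among 1976 tested there. On the other chromosomes 1139 of 13427 tested genes were called, and 108 called genes had no known chromosome. With genes of those chromosomes set aside, a choice made after seeing the data, 44 of 134 immune genes were lower and 3 higher, 26 of 114 matrix genes were lower and 2 higher, and 9 of 72 S phase and G2/M genes were higher and none lower. Beside them, 680 lower and 459 higher genes were called among all 13427 tested genes placed on other chromosomes. Shifted stretches elsewhere stayed in, such as the end of chromosome 1 and the first deciles of chromosomes 9, 10 and 5, at −0.37, −0.34 and −0.20. The fourth decile of chromosome 6, at −0.19 with 17.6% called lower, also stayed in. It holds HLA-DRB1, HLA-DQB1, HLA-DMB, HLA-DOA, HLA-DPA1, TAP1, PSMB8, PSMB9, C4A and C4B, all counted as immune genes. So did the fourth decile of chromosome 4, at −0.17 with 14% called lower, which holds IL8, CXCL1, CXCL5 and CXCL3. These counts therefore do not show whether the calls hold away from such stretches.

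**Figure D4:**
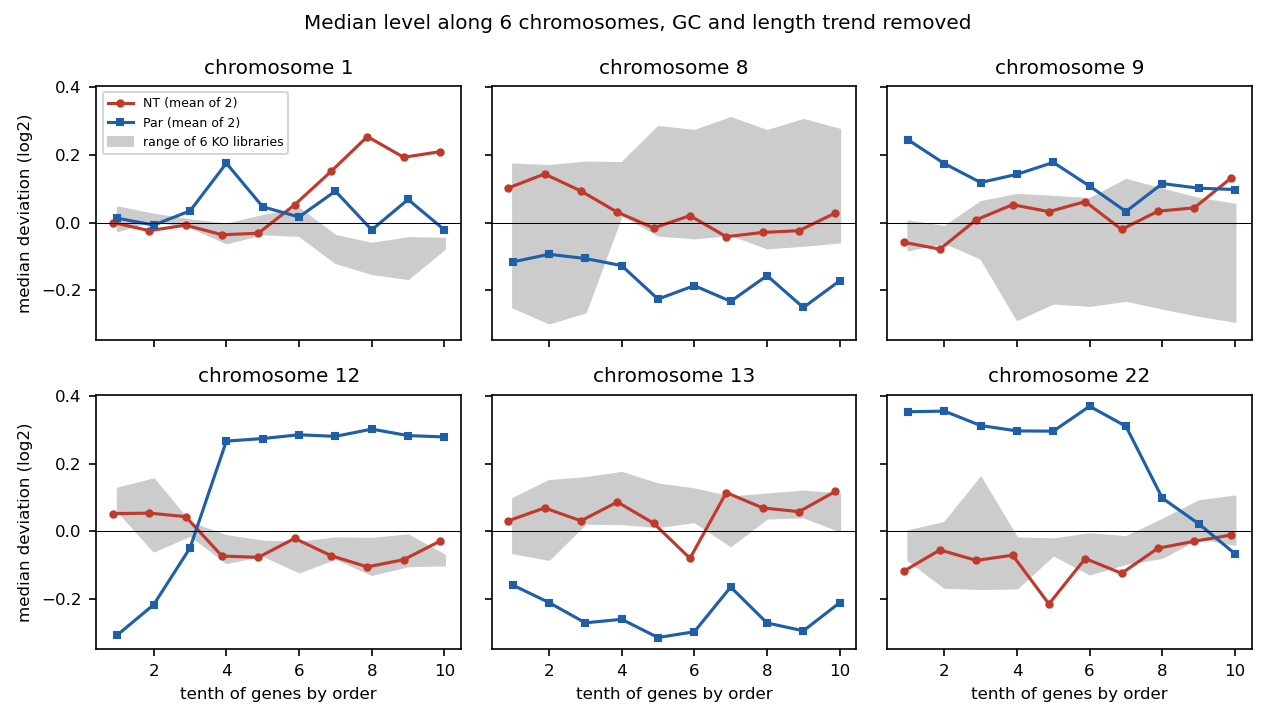
Median deviation from the mean of the 10 SKmel147 libraries (log2, trends on GC content and length removed) along 6 chromosomes, each cut into deciles of its genes in order, for NT (red, mean of 2 libraries), Par (blue, mean of 2 libraries) and the range of the 6 KO libraries (grey). On chromosome 12 the Par line crosses that of NT after the first deciles, and on chromosomes 13 and 22 Par lies apart from NT over most deciles.

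The comparison had a GC trend throughout. Across 15403 genes the log2 fold change of NT minus Par followed GC content at a Spearman rho of −0.409, and at −0.534 over the 9672 genes whose mean log2 CPM was 3 or more. In the decile of genes lowest in GC, 24.2 to 38.7%, the median was 0.19, with 6.68% called higher and 1.62% lower. In the decile highest in GC, 61.3 to 83.9%, it was −0.41, with 0.584% called higher and 10.7% lower. Genes called higher had a median GC content of 43.0% and genes called lower one of 54.3%, beside 47.9% for all tested genes. Single libraries differed in this. The rho was −0.613 for NT R1 minus Par R2, −0.393 for NT R1 minus Par R1 and −0.356 for NT R2 minus Par R2, but 0.103 for NT R2 minus Par R1, and it was as strong between libraries of a line, at −0.617 for NT R1 minus NT R2 and −0.526 for Par R1 minus Par R2. Without NT R1 or without Par R2 the fit gave −0.156 and −0.163, and without NT R2 or without Par R1 −0.526 and −0.511. After the correction it was 0.0056, with 7.40% called higher and 8.24% lower in the decile highest in GC. Transcript length had little trend, with a rho of 0.0074. The immune list medians of GC content ran from 46.3% for interferon-stimulated genes to 56.0% for checkpoint ligands, that of collagens was 60.7% and that of G2/M genes 43.8%, and what part the trend had in their counts was not tested beyond the corrected fit.

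**Figure D5:**
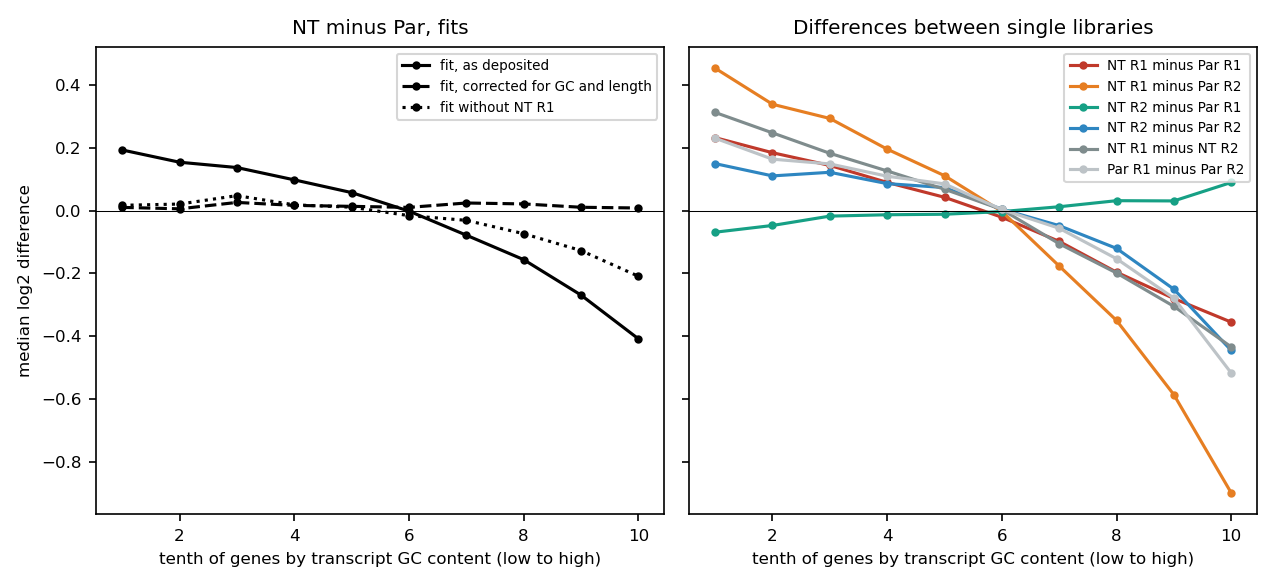
Median log2 difference by decile of genes in order of transcript GC content, for the fits of NT minus Par (left) and for pairs of single libraries (right). The fit falls from 0.19 in the lowest decile to −0.41 in the highest and is flat after correction, and among pairs the steepest is NT R1 minus Par R2, while NT R2 minus Par R1 tilts the other way.

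The same contrast was available in 501mel, a melanoma line with the BRAF mutation V600E, between NTC, transduced with a single Lenti-CRISPR V2 vector for Cas9 and sgRNA, and its own Par. There 2547 of 16230 genes were called, 15.7%, with 1098 higher (6.77%) and 1449 lower (8.93%). Immune genes were called higher in 14 and lower in 10 of 106, with a median of 0.03, and matrix genes higher in 19 and lower in 11 of 92, with a median of 0.04. S phase genes were called higher in 9 and lower in 1 of 41, with a median of 0.05. G2/M genes were called higher in 3 and lower in 10 of 42, with a median of −0.08. The difference of the contrast between the cell lines was tested in a joint fit of all 18 libraries, and 1970 of 19518 genes passed, 10.1%, 953 with the larger value in SKmel147 (4.88%) and 1017 with the smaller (5.21%). Of 43 interferon-stimulated genes, 10 had the smaller value in SKmel147 and none the larger, and of 22 class I pathway genes 7 and none. In the other immune lists it was 1 and 1 of 18 in the class II pathway and 1 and none of 21 cytokines, chemokines and NF-kB targets. Within 501mel only 11 and 6 members of these 2 lists were high enough to be tested, so their low counts do not show that the contrasts were alike. In nucleic acid sensing it was 2 and 1 of 22, among checkpoint ligands 3 and none of 9, and in complement 2 and none of 14. OAS3 differed by −1.66 between the contrasts, PSMB9 by −2.32 and TAP1 by −1.28, with adjusted p of 5.56e-06, 0.000780 and 0.000319 (edgeR quasi-likelihood test, BH). Among S phase genes 7 of 41 had the larger value in SKmel147 and 1 the smaller, and among G2/M genes 8 of 42 and 1. NEK2 differed by 1.02 and TOP2A by 0.68. IL1B, IL8, CXCL1, HLA-DOA and HLA-DQB1 were too low for a test within 501mel, so nothing can be said of them there. The vectors differ between the cell lines, so cell line and vector cannot be told apart.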

How the data were processed

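Polyadenylated RNA was sequenced from 18 libraries of 9 lines, 2 per line, and the comparison contrasts 4 of them in a fit of all 10 SKmel147 libraries. The authors deposited unnormalized counts for each gene symbol and library, with STAR 2.6.0, featureCounts, GRCh37 and hg19 named in the submitters' processing notes. Which annotation was counted, on which strand and with which rule for multiply mapped reads is not stated, so overlapping, antisense and near-identical genes are uncertain. Each table lists 56629 symbols, and no row was a total.

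The analysis used edgeR 4.0.16 in R 4.3.3: TMM scaling, the filterByExpr filter by line, 1 coefficient for each of 5 lines over all 10 SKmel147 libraries so that the lines share an estimate of the spread, and the quasi-likelihood test of NT minus Par with Benjamini-Hochberg adjustment over 18361 genes. The cell lines were compared by the interaction of line and cell line over all 18 libraries. Precision follows from the total counts, given with the results. GC content, length, chromosome and gene order came from GENCODE 29, whose assembly differs from the submitters' builds, and 35509 symbols matched, 1387 through an older symbol. The GC and length correction subtracted, per library, a smooth trend (natural splines with 5 degrees of freedom) of its deviations from the gene means. The fit was tested on simulated data. Promoters came from RefSeq.

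The comparison and its 36 gene lists were chosen with earlier results of these data known. Genes named were the 10 per direction with the largest change among those called that had a mean log2 CPM of 3 or more, no overlap between the lines and a call in the same direction after correction, up to 5 called members per immune, matrix or cycle list and up to 2 per other list, 3 per direction for the cell line difference, and ARID2. Other members were named after their values were seen, and a few named or counted genes are not reported here. Alternatives were the DESeq2 1.42.0 size factors and Wald test, no filter, the 4 libraries alone, a replicate block, the corrections, a 2-fold limit and each library left out.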

Additional observations from a re-analysis of the deposited data

Results flagged for a closer look

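The contrast of the transduced control minus Par differed between SKmel147 and 501mel in 1970 genes by the test of the difference itself (edgeR quasi-likelihood test, BH, joint fit of 18 libraries), and 63 of the 109 genes named by rule were among them, with adjusted p of 1.04e-07 to 0.0488. The vectors differ between the cell lines, so vector and cell line cannot be told apart. The differences below are log2 values of the SKmel147 contrast minus the 501mel contrast.

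Of the genes with the largest changes, LCP1 differed by 3.58, ZNF704 by 1.82, SLC7A2 by 1.22, ATP11A by 1.54, RASSF5 by 1.51, TGFB2 by 1.61, SYNPO by −5.44 and EPAS1 by −2.06. Chosen for this difference, PTPRZ1, a receptor tyrosine phosphatase, differed by 3.98, the nuclear pore gene NUP210 by 3.98, ZNF266 by 5.04, CPT1A, the gate of fatty acid import into mitochondria, by −3.27, FRMD4A by −1.84 and XYLT1, which starts glycosaminoglycan chains, by −4.38. SYNPO had 7 and 7 counts in 501mel NTC, against 0 and 1 in 501mel Par, too few for a test within 501mel, and ADAM19 and C1R had at most 22 counts in each of these libraries. ZNF266 owed its value mostly to 501mel, where it fell by 4.55, against a rise of 0.49 in SKmel147.

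Immune genes that differed were CTSS at −2.26, RFXAP at 1.01, TAP1 at −1.28, PSMB9 at −2.32, HLA-C at −0.89, HLA-B at −1.74, CD276 at −0.89, TNFRSF14 at −1.55, OAS3 at −1.66, IFITM3 at −1.50, IFIT3 at −0.89, JAK1 at −0.68 and C1R at −1.62. Matrix genes were COL12A1 at −2.11, COL6A2 at −3.08, P4HA2 at −0.55, FN1 at −1.20, SPARC at −0.65, ADAM19 at −1.60, TLN1 at −0.81, PXN at −0.84 and ZYX at −0.70. Cell cycle genes were RFC3 at 0.81, RFC4 at 0.47, MCM5 at −0.77, RRM2 at 0.48, GINS1 at 0.71, CENPF at 0.55, NEK2 at 1.02, TOP2A at 0.68, NUSAP1 at 0.49, RB1 at 1.00 and CCND3 at −0.75.

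Of other programmes, MVK differed by −1.30, ASNS by 0.93, MTHFD2 by 0.87, PFKP by −1.11, PDK1 by 0.94, FOS by 2.46, MAFF by −0.75, PTPN14 by 0.64, WWC1 by −0.81, BCL2A1 by −3.52 (1 count in each NT library), NES by −2.45, SMARCB1 by −0.77, RPL7 by 0.75, RPL38 by 0.82 and HSPA1A by −1.12.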

How the results depend on the processing

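The count of 1702 called genes was 1691 with DESeq2 size factors and 2151 with the DESeq2 Wald test. The named genes and the 5 chromosome medians kept their sign under every alternative run, but the balance of calls turned with the correction. The GC trend kept its sign at the CPM limit and with each library left out. After the GC and length correction its rho was 0.0056, and it was not computed under the other alternatives. The count was 2680 (1711 lower) with no filter, 380 (123 higher, 257 lower) with the NT and Par libraries alone, 570 (189, 381) beyond 2-fold, 3146 (1600, 1546) after the GC and length correction and 3103 (1541, 1562) after correction for GC alone. Leaving out 1 library gave 436 to 2375 genes, 168 to 872 higher and 268 to 1503 lower. The immune count of 49 lower was 19 with the 4 libraries alone, 28 beyond 2-fold and 21 to 60 with a library left out. The matrix count of 31 was 51 with no filter, 10 with the 4 libraries alone, 16 beyond 2-fold and 12 to 44 with a library left out. The S phase and G2/M count of 11 higher was 1, 28, 30 and 0 with the 4 libraries alone, the GC and length correction, the GC correction alone and the 2-fold limit, and 0 to 13 with a library left out. The difference between cell lines, 1970 genes, was 818 with only transduced control and Par libraries and 985 to 3014 with a library left out, with 1179 without NT R1, 3014 without Par R1 and 985 to 1204 without a 501mel library. With correction and a library left out together, chosen after seeing the data, 1561 to 3215 genes were called (734 to 1639 higher, 827 to 1576 lower), with 1127 higher without NT R2, 30 immune genes lower without NT R1, and 11, 19, 21 and 31 cycle genes higher without NT R1, NT R2, Par R1 and Par R2. The median of G1 genes (−0.26) was then 0.01 to 0.06 without NT R1, NT R2 or Par R2. Without Par R1 and Par R2 this fit called 3215 and 2945 genes, 1639 and 1425 higher and 1576 and 1520 lower. The cause of these shifts was not tested.

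The replicate numbers are not stated to mark a shared batch, and with 2 numbers they share only a number: differences of R1 minus R2 correlated at 0.261 between NT and Par across genes and at −0.267 to 0.324 between the other pairs of SKmel147 lines. With the replicate block 1610 genes were called (643 higher, 967 lower), 1793 differed between cell lines, and 50 immune, 30 matrix and 9 cycle genes passed. The block with the GC and length correction gave 2860 genes (1448 higher) and 25 cycle genes. Of the 109 named genes, 46 lost their call without NT R1, 30 without Par R2, 10 without NT R2 and 6 without Par R1. Depth limits genes with few counts, such as C3 and RSAD2.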

Other observations

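Other gene groups are given beside the 3.82% of all tested genes called higher and 5.45% called lower, or 8.71% and 8.42% after the GC and length correction. In cholesterol synthesis and uptake, 8 of 23 tested genes fell and none rose, with a median of −0.34 (11 lower and 1 higher after the correction). MVK, mevalonate kinase, had 6.18 and 7.28 CPM in NT, against 16.9 and 15.6 CPM in Par, and SREBF2, LSS, MVD, INSIG1 and IDI1 fell too, with 4 of the 8 called without NT R1. In the integrated stress response, 5 of 22 rose and 1 fell, with a median of 0.22 (11 higher and 1 lower after the correction). ASNS, asparagine synthetase, had 91.5 and 107 CPM in NT, against 54.7 and 57.9 CPM in Par, and MTHFD2, of mitochondrial folate metabolism, 209 and 209 CPM in NT, against 124 and 133 CPM in Par, while CEBPB fell. Ribosomal protein genes rose in 12 of 57 and fell in none, with a median of 0.25 (25 higher and 1 lower after the correction). RPL7 had 1579 and 1337 CPM in NT, against 917 and 911 CPM in Par, and 3 to 8 of the 12 kept their call with 1 of the 4 libraries left out. Their pseudogene copies can share reads.

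In the TGF-beta response 7 of 23 genes fell and 1, TGFB2, rose, with ID1, ID2, ID3, LTBP2 and TGFB1 lower beside TGFBI (8 lower and 1 higher after the correction, 2 and 1 without NT R1). Genes of undifferentiated and invasive melanoma fell in 6 of 25 and rose in none (9 lower and 2 higher after the correction), led by the neural intermediate filament NES at 155 and 189 CPM in NT, against 478 and 655 CPM in Par. Of the pigment and melanocyte list 3 of 17 fell, MLPH, EDNRB and BCL2A1, and none of the 3 was called without NT R1. YAP and TEAD targets rose in 3 of 19 (PTPN14, DLC1 and ANKRD1) and fell in 1 (WWC1), with 6 higher and 1 lower after the correction. AP-1 factors rose in 2 of 14, FOS and ATF3, and fell in 3, MAFF, JUN and FOSL2.

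The remaining groups had few calls. Of 22 MAPK feedback genes 1 rose and 2 fell (2 and 4 after the correction), and of 26 p53 targets 3 fell (2 higher and 5 lower). Of 27 hypoxia and glycolysis genes 1 rose and 3 fell, PDK1 higher and NDRG1, PFKP and PFKFB3 lower, at a median of −0.06, whereas after the correction 7 were higher and 1 lower at a median of 0.06. Without NT R1 the 4 genes named lost their call (adjusted p of 0.0663 to 0.238, edgeR, BH). Of 28 SWI/SNF subunits SMARCB1, on chromosome 22, fell. Of 13 heat shock genes HSPA1A fell, a call lost without NT R1 and without Par R2 (adjusted p = 0.146 and 0.120, edgeR, BH) and after the GC and length correction (0.0605), when 3 others were higher. None of the 13 mitochondrially encoded genes was called by edgeR, nor had any an unadjusted p under 0.05, and their share of counts was 4.70 and 6.12% in NT, against 6.07 and 4.70% in Par.

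Among markers of other cell types, TIE1, an endothelial receptor, had 0.373 and 1.01 CPM in NT, against 12.8 and 9.03 CPM in Par, while CDH5 had 0 counts in all 4 libraries and PECAM1 at most 3. Summed endothelial markers were 12.5 and 18.2 CPM in NT, against 31.7 and 26.2 CPM in Par. None of 4 keratinocyte and 3 fibroblast markers tested was called, with sums of 137 and 148 CPM and of 11.8 and 9.90 CPM in NT, against 164 and 143 CPM and 13.05 and 11.8 CPM in Par.

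Pigment genes were uneven between the Par libraries. PMEL had 7 and 1 counts in NT, against 48 and 3 in Par R1 and Par R2, TYR 0 and 2 in NT, against 21 and 0, and TYRP1 0.170 and 0.540 CPM in NT, against 6.37 and 0.344 CPM. The genes were picked after their values were seen.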
